A study of Mus musculus with 42 samples.

Results

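The comparison set 9 livers of mice dosed with BkF, short for benzo(k)fluoranthene and a combustion product made of fused aromatic rings, against 4 livers of mice given the vehicle alone. The treated group pooled all liver arrays of 3 dose groups, so its members were chosen by their labels and not by their values, and the 13 arrays are part of a series of 42. The question was which genes responded whatever the dose, including in the 2 livers of the low dose. The dose groups were D0 (vehicle, 4 livers), D1 (25 mg/kg-bw/day, 2 livers), D2 (50 mg/kg-bw/day, 3 livers) and D3 (100 mg/kg-bw/day, 4 livers). All mice, vehicle controls included, were adult males of about 11 weeks of the Muta™Mouse strain, which carries a bacterial lacZ transgene for mutation assays. All received olive oil by oral gavage for 28 days, with or without BkF, and livers were taken 72 h after the last dose. Each array held RNA from a slice of the left lobe of 1 mouse. The low dose had the fewest liver arrays, and mice 7 (D1) and 15 (D2) have lung but no liver arrays here.

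BkF is a ligand of the aryl hydrocarbon receptor (AhR), a transcription factor that moves to the nucleus when it binds such compounds, pairs with Arnt and binds DNA at sites with a GCGTG core. Its classical targets include the cytochrome P450 genes Cyp1a1, Cyp1a2 and Cyp1b1, its own repressor Ahrr, and Tiparp and Nqo1. The liver consists mostly of hepatocytes, but it also holds Kupffer cells, which are its resident macrophages, along with monocytes, dendritic cells, stellate cells and the endothelium of the sinusoids. Macrophages, dendritic cells and B cells display peptides on major histocompatibility complex (MHC) class II molecules, which hepatocytes largely lack.

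Each array compared liver RNA, labelled with Cy5, with a reference RNA pooled from mouse cell lines, labelled with Cy3. Levels below are log2 ratios of liver over reference signal, and changes are differences of mean log2 ratios, treated minus vehicle, with their standard errors (SE) from limma. All 12 hepatocyte markers were well above background in all 13 livers. The sample channel was well above background for 38.4% to 57.6% of probes, with the highest share in D2 mouse 13. The number of livers limits the precision. In D3 mouse 17, all 7 tested skeletal muscle markers were well above background and their mean log2 ratio was 3.52, against -1.30 to -0.99 in the other 12 livers. White fat markers averaged 3.90 in that liver and 2.51 in D3 mouse 20, and 0.31 to 1.07 in the other 11. All 4 vehicle arrays lay in the first column of their slide and no treated array did, so column position and treatment cannot be told apart. Dose followed column too. Both D1 livers lay in column 2, all D2 livers in column 3, and the D3 livers in column 4 apart from mouse 20 in column 3. The 10 spike-in RNAs, which enter each labelling at a known dose, averaged a log2 ratio of 1.24 on vehicle arrays and 0.63 on treated arrays, a difference of -0.61. Relative to the spike-ins, every pooled liver change of 9 against 4 livers below would thus be 0.61 higher. Changes at single doses would shift by other amounts. The spike-ins averaged 0.958 and 1.03 in the D1 livers, 0.238 to 0.856 at D2 and 0.366 to 0.865 at D3.

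Over all doses, 22 of 30460 probes were called, which is 0.0722% of those tested. A probe was called at a Benjamini-Hochberg adjusted p of at most 0.05 in limma and a change of at least 1.5-fold. Of these, 17 were higher (0.0558%) and 5 lower (0.0164%) in treated livers. Without adjustment, 2652 probes (8.71%) had a p under 0.05, with 4.14% of all probes higher and 4.56% lower. With 1 probe for each gene, 20 of 14508 named genes were called (0.138%), 16 higher and 4 lower. In all 20, the 9 treated livers lay beyond all 4 vehicle livers, as they did for 1.09% of all probes. A stricter description asked also for a mean change of at least 1.5-fold in the same direction at D1, D2 and D3. It held for 41 probes (0.135%) and 35 genes, 16 of which were called. The 14 called genes that met it upward were Adamdec1, Cd36, Cd74, Cx3cr1, Pcp4l1, Osbpl3, Tlr12, Mefv, Ttc39a, Csf2rb2, H2-Ab1, Tcf4, Ly6c1 and Adgrg3, and the 2 that met it downward were Tff3 and Mmd2. Ly6c1 and Adgrg3, like Amz1 and Endou below, are named because they were called and were chosen after their values were seen.

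The calls rested on few vehicle livers. Without vehicle mouse 2, 3 or 4 a single probe, that of Tcf4, was called each time, and without vehicle mouse 1 there were 7. Without D3 mouse 17, the liver with muscle and fat markers, 19 probes were called, and without both D3 mice 17 and 20 there were 9, of which 8 were among the 22. The other counts that differed by more than 1.5 times were 14 without D2 mouse 11, 12 without D3 mouse 16, 11 without D2 mouse 13, 13 without D3 mouse 20, 35 without D2 mouse 12 and 40 without D1 mouse 9. The arrays lay on 2 slides, each with all 4 groups. Within each slide alone the changes of the 20 called genes were 0.653 to 1.3 times the pooled ones, in a direction that groups without overlap fix, and 2 probes were called on either slide.

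**Figure D1:**
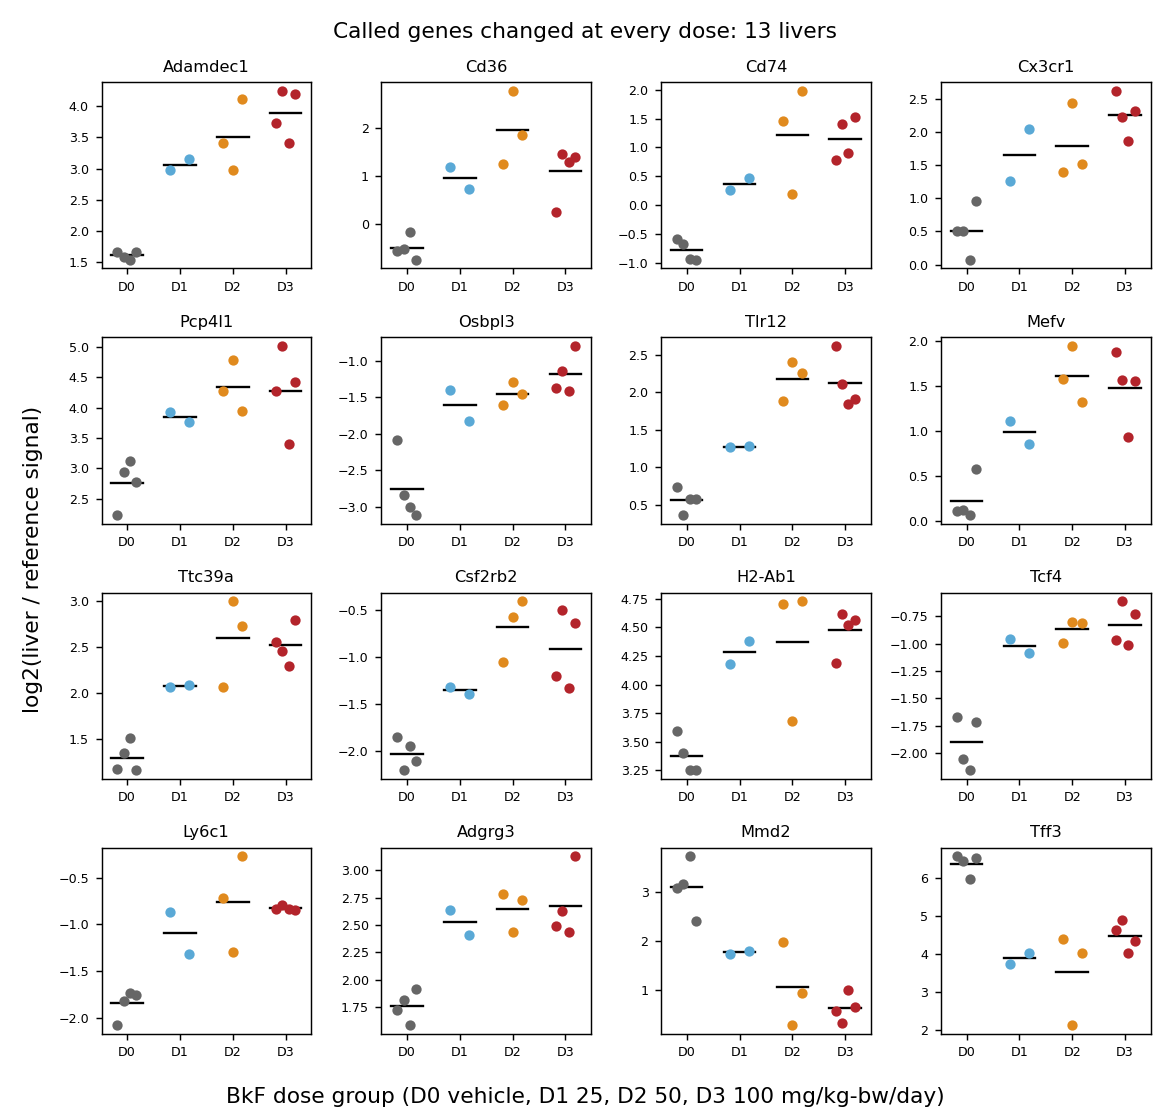
Log2 ratio of liver over reference signal (y axis) by BkF dose group (x axis) for the 16 called genes that changed at least 1.5-fold at every dose; each point is 1 liver and each bar a group mean. In every panel the 9 treated livers lie beyond the 4 vehicle livers, including both D1 livers.

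Genes of MHC class II antigen presentation had higher medians than all genes at every dose. Of 10 tested members, 9 were higher in treated livers, with a median change of 0.81 against 0.01 over all genes tested, and medians of 0.43, 0.85 and 0.90 at D1, D2 and D3. Cd74 and H2-Ab1 were called higher, and 6 members had an unadjusted p under 0.05 in the upward direction, as did 6.2% of all genes. In 5 members, Cd74, H2-Aa, H2-Ab1, H2-Eb1 and H2-DMb1, all 9 treated livers exceeded all 4 vehicle livers, against 1.05% of all genes.

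Cd74 encodes the invariant chain, which guides class II molecules to the compartments where they load peptide. Its log2 ratio was -0.58, -0.67, -0.94 and -0.95 in the vehicle livers, 0.27 and 0.47 at D1, 1.46, 0.20 and 1.98 at D2, and 0.78, 1.41, 0.90 and 1.52 at D3. The lowest treated value belonged to D2 mouse 12, and no treated liver reached down to the vehicle range. Cd74 rose 3.44-fold (1.78 ± 0.28, SE, n = 9 and 4, limma adjusted p = 0.027). H2-Ab1, the beta chain of the class II molecule I-A, lay between 3.25 and 3.59 in vehicle livers, at 4.18 and 4.38 at D1, and between 3.68 and 4.73 over all treated livers. It rose 2.03-fold (1.02 ± 0.16, limma adjusted p = 0.027), with changes of 0.91, 0.99 and 1.1 at D1, D2 and D3. The other H2-Ab1 probe gave 1.21, where 8 of 9 treated livers exceeded the vehicle livers.

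H2-Aa, the alpha chain of I-A, lay between 1.89 and 2.39 in vehicle livers and between 2.68 and 4.90 in treated livers, a difference of 1.72 ± 0.33 that was not called (limma adjusted p = 0.077). H2-Eb1, the beta chain of I-E, differed by 1.04 ± 0.18 (limma adjusted p = 0.052) and H2-DMb1, a chain of the peptide exchanger H2-DM, by 1.21 ± 0.26 (adjusted p = 0.14). In each of the 5 genes the lowest treated value was that of D2 mouse 12. Ciita, the master regulator of class II transcription, differed by -0.06 ± 0.11, and only 5 of 13 livers gave it a signal well above background. H2-Oa, H2-Ob and the protease gene Ctss differed by 0.18, 0.15 and 0.42, with overlapping groups. Class II genes are expressed by B cells, macrophages and dendritic cells, and in whole liver more cells of a type and more RNA per cell cannot be told apart. Of 8 tested B and plasma cell markers 4 were higher (median change 0.08), and of 14 Kupffer cell and macrophage markers 7 were higher (median -0.02). The mean level of 12 monocyte and dendritic cell markers, described next, lay between -0.02 and 0.06 in vehicle livers and between 0.27 and 0.79 in treated livers. That mean includes the called genes Adamdec1 and Cx3cr1, at 1.97 and 1.45, which separate the groups by themselves, beside a list median of 0.26. The part of any of these cell types in the class II values was not tested.

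The promoters of 3 of these genes are shown because the genes were higher together and share letters upstream. Class II promoters are known for a Y box, an inverted CCAAT box with the core ATTGG. In RefSeq promoters (GRCm38.p6), the 250 bases upstream of the start held ATTGG, or CCAAT for the other strand, in 6 of 8 promoters of the 7 class II genes with an entry, against 33.8% of 32851 promoters. Cd74, Ciita and H2-Ab1 had no entry. The last 150 bases before the start are given from 5′ to 3′ on the gene's strand, with ATTGG or CCAAT in capitals.
H2-Aa, chr17:34287824-34287973, minus strand: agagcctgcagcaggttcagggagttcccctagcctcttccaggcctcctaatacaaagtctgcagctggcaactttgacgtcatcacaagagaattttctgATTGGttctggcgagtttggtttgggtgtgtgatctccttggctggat
H2-Eb1, chr17:34305717-34305866, plus strand: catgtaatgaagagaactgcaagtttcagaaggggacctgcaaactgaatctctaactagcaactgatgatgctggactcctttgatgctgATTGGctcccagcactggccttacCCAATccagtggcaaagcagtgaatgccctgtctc
H2-DMb1, chr17:34153041-34153190, plus strand: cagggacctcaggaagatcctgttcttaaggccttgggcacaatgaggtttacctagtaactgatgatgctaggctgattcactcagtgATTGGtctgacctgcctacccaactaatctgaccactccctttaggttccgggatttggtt
ATTGG began 48, 59 and 61 bases before the start in H2-Aa, H2-Eb1 and H2-DMb1, and H2-Eb1 also held CCAAT at 35. These letters are a description and not evidence of binding.

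Of 12 tested markers of monocytes and dendritic cells 10 were higher, with a median change of 0.26, and 5 had an unadjusted p under 0.05 upward, against 6.2% of all genes. Adamdec1 and Cx3cr1 were called, where 0.138% of all genes were. Adamdec1, a secreted metalloprotease of dendritic cells and macrophages, lay between 1.53 and 1.66 in vehicle livers. It was at 2.97 and 3.16 at D1, 3.41, 2.97 and 4.12 at D2, and 3.73, 4.25, 3.41 and 4.20 at D3. All treated livers stood more than 1 unit above the vehicle livers, which barely differed among themselves. Adamdec1 rose 3.92-fold (1.97 ± 0.23, limma adjusted p = 0.0065), and the change was 1.46, 1.89 and 2.29 at the 3 doses. Its other probe differed by 0.54 (adjusted p = 0.16).

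Cx3cr1, the receptor for fractalkine on monocytes and macrophages, lay between 0.07 and 0.96 in vehicle livers, at 1.26 and 2.05 at D1 and at up to 2.62 at D3. It rose 2.74-fold (1.45 ± 0.24, limma adjusted p = 0.033), and its other, dimmer probe differed by 0.29. The remaining members of the list were not called. The dendritic cell genes Itgax and Clec9a and the transcription factor gene Irf8 differed by 0.39, 0.44 and 0.53, while Itgam, Zbtb46 and Flt3 differed by -0.08, -0.12 and 0.04.

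Tlr12, Mefv, Csf2rb2, Ly6c1 and Adgrg3 were called and belong to no list used here. Tlr12, a Toll-like receptor that senses a parasite protein, rose 2.62-fold (1.39 ± 0.21), from 0.36 to 0.73 in vehicle livers to a range of 1.27 to 2.62. Mefv, which encodes the inflammasome protein pyrin, rose 2.30-fold (1.20 ± 0.19), though it was well above background in only 1 of 4 vehicle livers and its other probe differed by 0.22. Both had a limma adjusted p of 0.027. Csf2rb2, a receptor subunit for interleukin 3, rose 2.13-fold (1.09 ± 0.19, adjusted p = 0.048). Ly6c1, a surface protein of monocytes and endothelium, rose 1.98-fold (0.98 ± 0.15, adjusted p = 0.027), and Adgrg3, an adhesion receptor of granulocytes, 1.84-fold (0.88 ± 0.12, adjusted p = 0.016). The other probes of Csf2rb2 and Ly6c1 differed by 0.39 and 0.32 (adjusted p = 0.25 and 0.59), with 8 and 4 of 9 treated livers above the vehicle livers. Both genes have a near-identical neighbouring copy, so their probes may not separate the copies. Of the 14 tested Kupffer cell and macrophage markers 7 were higher and 7 lower, with none called. The largest falls were those of Cd5l and Folr2, at -1.14 and -1.08 (limma adjusted p = 0.51 and 0.61). Marco and Csf1r had the largest rises, at 0.74 and 0.41 (limma adjusted p = 0.64 and 0.65).

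Tcf4, a helix-loop-helix factor needed by plasmacytoid dendritic cells, had the smallest p of all probes. Its log2 ratio was -1.67, -2.06, -2.16 and -1.72 in vehicle livers, -0.96 and -1.09 at D1, and between -1.01 and -0.61 at D2 and D3. The treated values were tight, with an SD of 0.15 over 9 livers against 0.24 over 4 vehicle livers. Tcf4 rose 2.02-fold (1.01 ± 0.11, limma adjusted p = 0.0038), by 0.88, 1.04 and 1.07 at the 3 doses. It was called in 13 of 13 fits that left out a liver, and its other probe differed by 0.43 with all 9 treated livers above the vehicle livers (adjusted p = 0.088).

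Lipid-handling genes included the gene with the largest called rise after Adamdec1. Cd36, a fatty acid and lipoprotein scavenger receptor, was at -0.57, -0.52, -0.17 and -0.76 in vehicle livers, 1.18 and 0.73 at D1, 1.25, 2.78 and 1.85 at D2, and 0.25, 1.45, 1.29 and 1.39 at D3. No treated liver overlapped the vehicle livers, and D3 mouse 16 came nearest to them. Cd36 rose 3.63-fold (1.86 ± 0.32, limma adjusted p = 0.048). Fat also expresses Cd36, and the 5 white fat markers tested were all higher in treated livers, with a median change of 0.75. Their median changes were 0.19, 0.20 and 1.17 at D1, D2 and D3, and their mean levels in D3 mice 17 and 20 were 3.90 and 2.51. In every vehicle liver 4 of the 5 markers stayed short of the background limit. In mean level of these markers the vehicle livers lay between 0.31 and 0.72, the D1 livers at 0.65 and 0.61, and D2 mice 12 and 13, with the highest Cd36, at 1.07 and 0.89. Their part in the Cd36 change was not tested. Without D3 mice 17 and 20 the Cd36 change was 1.84 (adjusted p = 0.15), and Cd36 was called in 3 of 13 fits that left out a liver. Osbpl3, an oxysterol-binding protein family member, rose 2.62-fold (1.39 ± 0.19, adjusted p = 0.014), from -3.11 to -2.08 in vehicle livers to -1.82 to -0.80. Its other probe was called too, at 1.22 ± 0.19 (limma adjusted p = 0.027).

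Cd36 is a known target of PPAR alpha, the fatty acid sensor of hepatocytes, whose other targets were mostly lower. Of 24 tested, 18 were lower in treated livers, and the median change was -0.17 beside -0.22 for 12 hepatocyte markers, all of them lower. An unadjusted p under 0.05 downward was found for 9 of the 24 targets (37.5%). It was found for 5 of the 12 hepatocyte markers (41.7%) and for 4.37% of all genes. None of those 9 targets was called, and the part of the hepatocyte markers in these values was not tested. Fabp1, the liver fatty acid-binding protein, differed by -0.42 with all 9 treated livers below the vehicle livers (limma adjusted p = 0.21). Of 25 cholesterol synthesis genes 22 were higher, with a median change of 0.41 and medians of 0.42, 0.49 and 0.33 at D1, D2 and D3. In that list 12 genes had an unadjusted p under 0.05 upward, against 6.2% of all genes, none was called, and none separated the groups. Hmgcs1, an early enzyme of the pathway, differed by 0.92 ± 0.34 (limma adjusted p = 0.47).

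**Figure D2:**
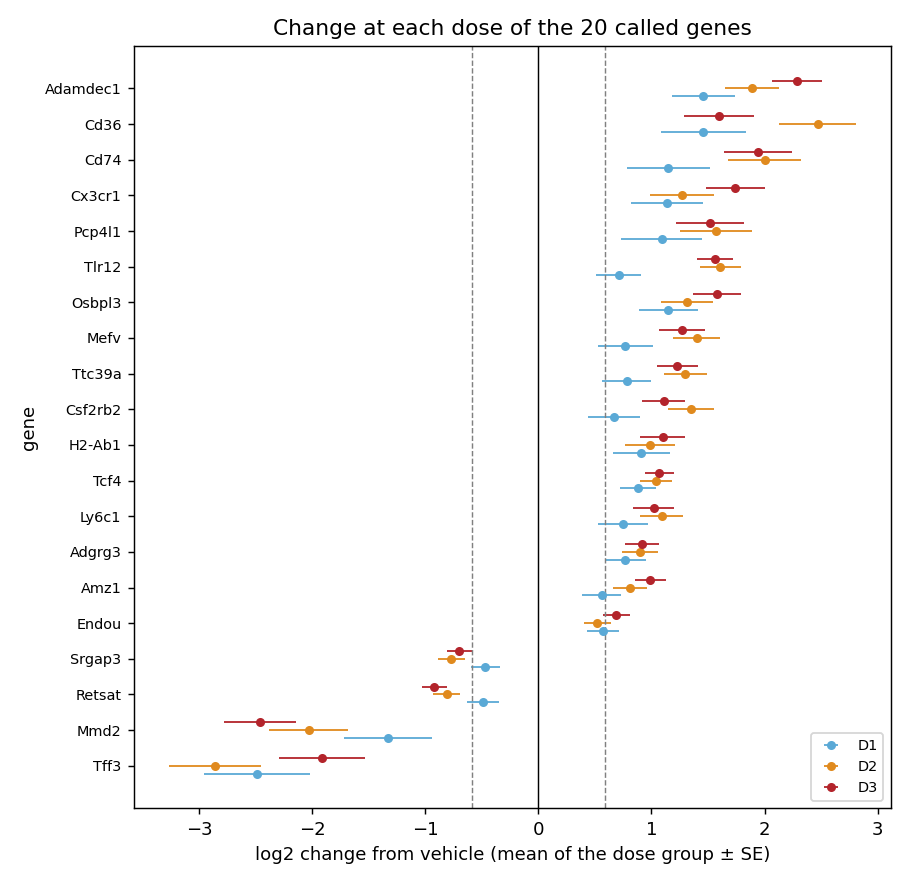
Log2 change from the vehicle mean (x axis) at D1, D2 and D3 for the 20 called genes (y axis), as points with SE bars; dashed lines mark a 1.5-fold change. Each gene lies on the same side of 0 at all 3 doses, from Tff3 at -2.49, -2.86 and -1.91 to Adamdec1 at 1.46, 1.89 and 2.29.

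The remaining upward calls were Pcp4l1, Ttc39a, Amz1 and Endou. Pcp4l1 rose 2.71-fold (1.44 ± 0.25, limma adjusted p = 0.048), from 2.23 to 3.12 in vehicle livers to 3.40 to 5.02. Ttc39a rose 2.23-fold (1.15 ± 0.17, adjusted p = 0.027), and its other probes differed by 0.81 and 0.23. Amz1, a metallopeptidase gene, rose 1.79-fold (0.84 ± 0.13) and Endou, an endoribonuclease gene, 1.52-fold (0.61 ± 0.10), both with a limma adjusted p of 0.027. These last genes separated the groups but stayed just under 1.5-fold at D1, with changes of 0.56 and 0.57, where 1.5-fold is 0.58, and Endou also at D2, with 0.52.

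Of the called genes, Tff3 and Mmd2 fell most. Tff3 encodes a trefoil peptide that is secreted with mucus in the gut and is also made in liver. Its log2 ratio was 6.58, 6.45, 5.98 and 6.53 in vehicle livers, 3.75 and 4.04 at D1, 4.39, 2.12 and 4.04 at D2, and 4.64, 4.90, 4.03 and 4.35 at D3. Every treated liver was more than 1 unit below every vehicle liver, with the lowest value in D2 mouse 12. Tff3 fell 5.12-fold (-2.36 ± 0.36, limma adjusted p = 0.027), and the D1 change of -2.49 was larger in size than that of D3, -1.91. Mmd2, a relative of the progestin and adiponectin receptors, was at 3.08, 3.17, 3.73 and 2.42 in vehicle livers, 1.75 and 1.80 at D1 and between 0.29 and 1.99 at D2 and D3. It fell 4.18-fold (-2.06 ± 0.33, adjusted p = 0.027), by 1.33, 2.03 and 2.46 on the log2 scale at the 3 doses. At D2 and D3 it was well above background in 5 of 7 livers. A called probe without a gene name, A_55_P2177410, fell by 0.80 on the log2 scale (adjusted p = 0.014).

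Retsat, which saturates retinol, fell 1.73-fold (-0.79 ± 0.12, limma adjusted p = 0.027), from 3.25 to 3.59 in vehicle livers to 2.33 to 2.95. Its D1 change was -0.49, short of 1.5-fold. Srgap3, a GTPase-activating protein of the Slit and Robo pathway, fell 1.59-fold (-0.67 ± 0.10, adjusted p = 0.027), with other probes at -0.17 and -0.29. The 27 retinoid metabolism genes had a median change of -0.11. In that list 7 genes had an unadjusted p under 0.05 downward, against 4.37% of all genes, and none upward, and the 9 treated livers lay below the vehicle livers for Retsat, Rdh7 and Dhrs4, where 0.503% of all genes did so. Rdh7, a retinol dehydrogenase of hepatocytes, differed by -0.31 (adjusted p = 0.40). Hepatocyte markers were also lower, in 12 of 12 genes with a median change of -0.22 (Apob, the main lipoprotein of hepatocytes, -0.56, adjusted p = 0.16). An unadjusted p under 0.05 downward was found for 41.7% of these markers and 25.9% of the retinoid genes. The part of the hepatocyte markers in the retinoid values was not tested. Stellate and fibroblast markers, from the cells that store retinol, were higher in 11 of 11 genes (median 0.28), with none called. In mean level D2 mouse 12 (-0.46) and D3 mouse 17 (-0.61) stood apart from the other treated livers (-1.85 to -1.37), the vehicle livers lay between -1.80 and -1.68, and the median change was 0.14 without mouse 17 and 0.19 without mouse 12. Col1a1, a main fibrillar collagen gene, was at -2.04 and -3.52 in these livers and at -5.73 to -4.78 in the other treated livers.

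The AhR targets differed unevenly between livers, and none was called in the pooled comparison. Cyp1a1 was at 0.23, -0.06, 0.00 and -0.09 in vehicle livers, at 4.61 and -0.02 at D1, at 3.73, 7.14 and 6.26 at D2, and at 5.90, 7.05, 2.62 and 5.55 at D3. The D1 livers thus split. Mouse 8 was far above the vehicle livers, and mouse 9 lay within their range. No vehicle liver gave a Cyp1a1 signal well above background, so the treated mean was at least 17.5-fold higher (at least 3.73-fold at D1), with a difference of 4.74 ± 1.02 (limma adjusted p = 0.14) and an SD of 2.33 over the 9 treated livers. Without D1 mouse 9 it passed the threshold (adjusted p = 0.0093), as it did without the low dose (0.012), and over all fits that left out a liver its adjusted p ran from 0.0093 to 0.43.

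Cyp1b1 was at least 4.15-fold and Ahrr at least 1.9-fold higher, both with 9 of 9 treated livers above the vehicle livers (limma adjusted p = 0.28 and 0.26), as in 1.05% of all genes. For these bounds the dim vehicle signal was set, per array, to the lowest signal well above background where that was higher. Cyp1b1 in D1 mouse 9 was -2.47, next to a vehicle range of -2.78 to -2.65, and Ahrr in that liver was 0.11 against -0.69 to -0.35. Tiparp and Nqo1 differed by 0.67 ± 0.20 and 0.67 ± 0.29 (adjusted p = 0.35 and 0.54). For Tiparp all 9 treated livers exceeded the vehicle livers, and for Nqo1 8 did. The other Tiparp probe differed by 0.58, with 6 of 9 treated livers above the vehicle livers. Cyp1a2, already abundant in hepatocytes, was at 6.11 to 6.42 in vehicle livers and 5.81 to 6.68 in treated livers, a difference of 0.05 ± 0.12. Of the 13 AhR battery genes tested 12 were higher, with a median change of 0.39, and 7 had an unadjusted p under 0.05 upward, against 6.2% of all genes.

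D2 mouse 12 stood at opposite ends of these groups. It had the highest Cyp1a1, Cyp1b1, Ahrr, Tiparp and Nqo1 of all livers, and the lowest Cd74, H2-Ab1, H2-Aa, H2-Eb1 and H2-DMb1 of the treated livers. D1 mouse 9 had Cyp1a1 at the vehicle level, while the called genes lay beyond the vehicle livers in it, as the calls with 9 of 9 treated livers imply. With 1 liver each these are descriptions.

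**Figure D3:**
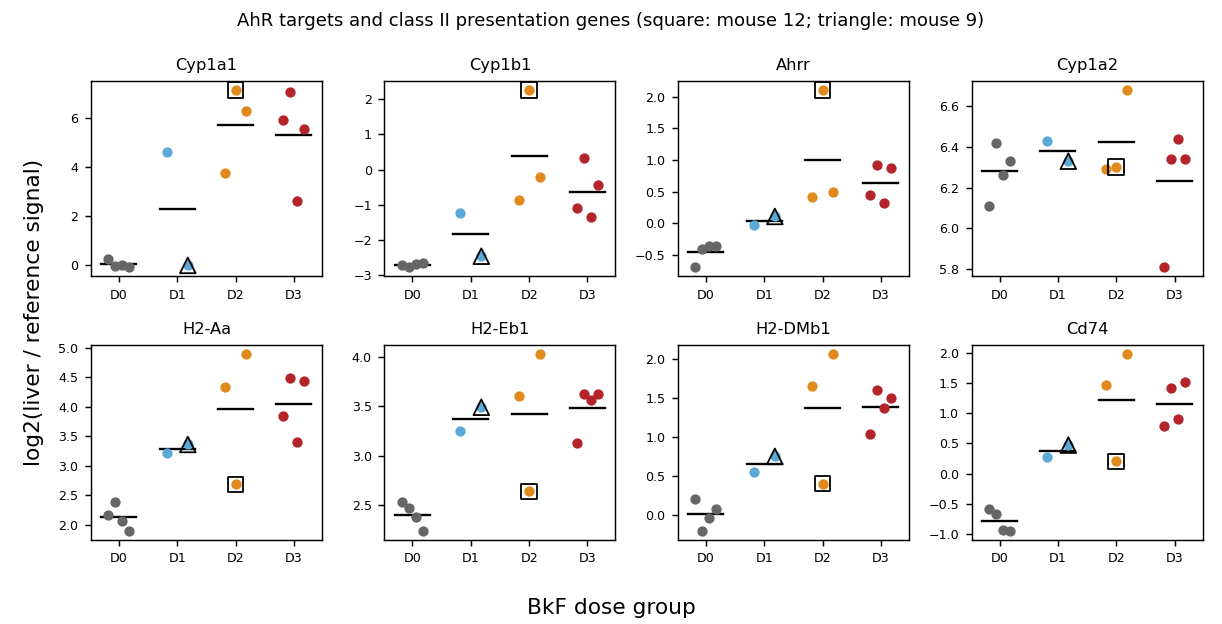
Log2 ratio of liver over reference signal (y axis) by BkF dose group (x axis) for 4 AhR targets and 4 genes of class II presentation; each point is 1 liver, bars are group means, the square marks D2 mouse 12 and the triangle D1 mouse 9. Mouse 9 sits at the vehicle level for Cyp1a1 (-0.02) but above the vehicle livers for H2-Aa (3.36), and mouse 12 is the highest liver for Cyp1a1 (7.14) and the lowest treated liver for H2-Aa (2.68).

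The GCGTG core was searched in the same 250 upstream bases on both strands, as GCGTG or CACGC. It was present in 28.2% of all 32851 promoters, in 4 of 6 promoters of the AhR core genes (Cyp1a1, Cyp1b1, Ahrr and Tiparp) and in 4 of 15 promoters, or 26.7%, of the 14 called genes with an entry (Mefv, Mmd2, Osbpl3 and Retsat). Adamdec1, Cd74, Endou, H2-Ab1, Tcf4 and Tff3 had no entry. The share among called genes was near that of all promoters. Cyp1a1 is shown as the reference target, beside the called genes Osbpl3, Mmd2 and Retsat, with the core in capitals, over 150 upstream bases and over 180 for Osbpl3.
Cyp1a1, chr9:57697463-57697612, plus strand: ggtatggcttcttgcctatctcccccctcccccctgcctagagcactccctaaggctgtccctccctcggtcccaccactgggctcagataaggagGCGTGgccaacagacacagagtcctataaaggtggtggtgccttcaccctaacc
Osbpl3, chr6:50456171-50456350, minus strand: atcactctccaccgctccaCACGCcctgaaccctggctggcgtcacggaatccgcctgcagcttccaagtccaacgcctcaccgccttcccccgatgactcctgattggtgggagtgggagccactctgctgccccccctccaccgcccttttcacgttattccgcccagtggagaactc
Mmd2, chr5:142608753-142608902, minus strand: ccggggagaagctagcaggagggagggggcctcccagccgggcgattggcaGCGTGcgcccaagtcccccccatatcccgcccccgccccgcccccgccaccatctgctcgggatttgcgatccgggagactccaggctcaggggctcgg
Retsat, chr6:72598452-72598601, plus strand: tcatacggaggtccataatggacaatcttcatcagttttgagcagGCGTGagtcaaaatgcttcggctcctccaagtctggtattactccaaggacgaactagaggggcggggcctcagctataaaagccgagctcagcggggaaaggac
The core began 54, 161, 99 and 105 bases before the start in Cyp1a1, Osbpl3, Mmd2 and Retsat. In Osbpl3 it lay on the other strand. Here too the letters are a description and not evidence of binding, and sites more than 250 bases upstream were not searched.

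A further 19 genes met the every-dose description without being called. The upward ones named here were chosen after their values were seen. The upward ones with the smallest p after H2-Eb1 were Clec4n, which encodes the fungal receptor dectin-2 (1.17 ± 0.21, limma adjusted p = 0.061), and Tuba8, a tubulin gene (2.78 ± 0.51, adjusted p = 0.062). Tuba8 had the widest gap of this group, from -3.33 to -2.85 in vehicle livers to -1.88 to 1.58 in treated livers. Gas6, a ligand of receptors for dying cells, differed by 0.98, the chemokine gene Cxcl14 by 1.76, Car2 by 1.11, Pparg by 0.77 and Vwf by 1.20, with adjusted p-values of 0.08 to 0.20. Downward, Slc13a2, a transporter of citric acid cycle intermediates, differed by -2.28 ± 0.42 (adjusted p = 0.063), with 3.64 to 4.66 in vehicle livers and 0.49 to 3.54 in treated livers. Gpr162, Dnaic1, Gstp2 and Gstp1 differed by -0.92, -1.38, -0.91 and -0.73 (adjusted p = 0.094 to 0.47). The glutathione transferase genes Gstp1 and Gstp2 are near-identical, so their probes may not separate them.

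The treated doses could not be told from each other gene by gene. A moderated F test of D1, D2 and D3 found 0 of 30460 probes at an adjusted p of at most 0.05, with 882 (2.9%) at an unadjusted p under 0.05. Among the 22 called probes 6 were below that unadjusted level. Tlr12 was among these, with changes of 0.71, 1.61 and 1.56 at D1, D2 and D3. Apart from D3 mouse 20, dose and array column cannot be told apart in this test. Against vehicle alone, none of the 20 called genes reached an adjusted p of 0.05 at D1, where 2 livers were measured, while 10 did at D2 and 12 at D3.

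Most other gene lists had medians close to that of all genes. The p53 targets Cdkn1a, Mdm2 and Ccng1, which mark a response to DNA damage, differed by 0.31 ± 0.39, 0.04 ± 0.08 and 0.19 ± 0.08 (limma adjusted p = 0.53 to 0.92), and the median of 23 such genes was 0.10. The highest Cdkn1a, -0.74, was in D2 mouse 12, against -3.58 to -2.33 in vehicle livers, and the Cdkn1a difference was 0.06 without that liver, 0.13 without vehicle mouse 4 and 0.54 without vehicle mouse 2. Interferon-stimulated genes had a median of -0.10, MHC class I genes -0.02, T and NK cell markers 0.06, acute phase proteins -0.04, lipogenesis genes 0.06, sinusoidal endothelial markers -0.07 and bile duct markers 0.07, with no call in any of them. Within the acute phase list, Lcn2 and Saa3 differed by 1.52 and 1.38 (adjusted p = 0.47 and 0.45), and within slide 2 alone the Lcn2 difference was -0.05.

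Nrf2 targets had a median of 0.11, proliferation genes 0.13 and circadian clock genes 0.15. An unadjusted p under 0.05 upward was found in 33.3% of Nrf2 targets, 17.4% of p53 targets and 27.3% of pericentral genes, against 6.2% of all genes. Downward the shares of these lists were 6.67%, 4.35% and 0%, and that of periportal genes 25%, against 4.37%. With single livers left out, the clock median ran from 0.05 to 0.32. In the clock list 2 of 18 genes had an unadjusted p under 0.05 upward and 3 downward. Usp2 and Dbp differed by 1.24 and 1.17, with 0.00 and -0.10 at D1, while Nfil3, Rora and Clock differed by -0.76, -0.29 and -0.33, the last with all 9 treated livers below the vehicle livers (adjusted p = 0.20). P450 genes of families 2 to 4 had a median of -0.17, phase II conjugation genes -0.07, bile acid genes -0.16, glucose genes -0.19, periportal genes -0.19 and pericentral genes 0.05. Pancreatic acinar and erythroid markers, 4 genes each, had medians of -0.05 and -0.25. None of these lists held a called gene. The skeletal muscle list, at 0.65, had a median of -0.01 without D3 mouse 17.

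Genes with higher expression in male or female mouse liver lay on opposite sides of 0 on average. All 12 tested male-biased genes were lower and all 9 tested female-biased genes higher, with medians of -0.47 and 0.58 and none called. D2 mouse 12 stood apart in both lists. Its mean log2 ratio was 3.50 over the male-biased genes, against 6.22 to 6.92 in the other 12 livers, and 5.48 over the female-biased genes, against 1.34 to 2.61. Without that liver the medians were -0.22 and 0.23. At D1 they were -0.09 and 0.18, and at D3 -0.31 and 0.05.

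**Figure D4:**
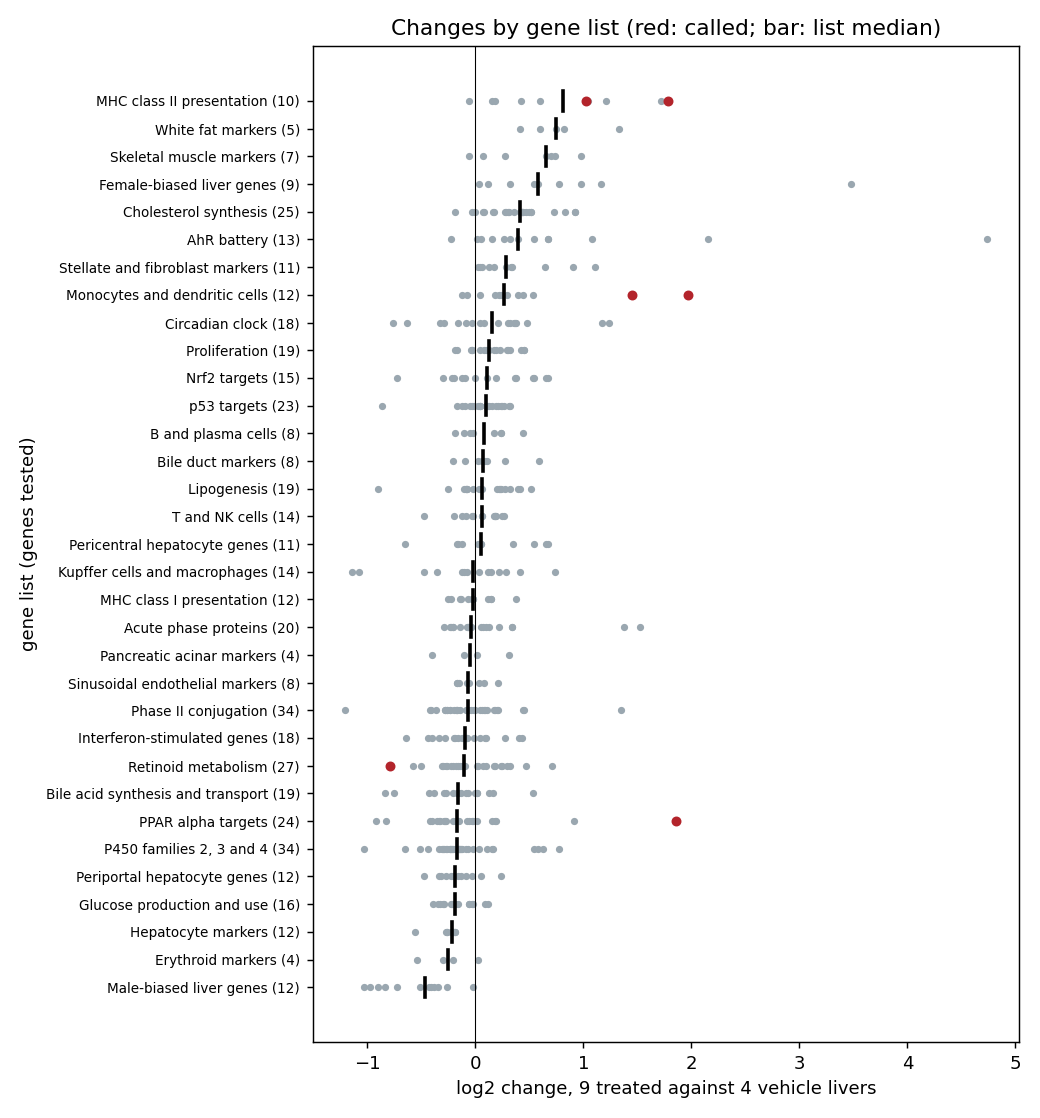
Log2 change between 9 treated and 4 vehicle livers (x axis) for each tested gene of the gene lists (y axis, with the number of genes tested); points are genes, red points are called genes and black bars are list medians. The class II list has the highest median, 0.81, and the male-biased list the lowest, -0.47.

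Lungs of the same experiment, 11 treated and 4 vehicle, were used to ask whether the liver changes differed from those of another tissue. Of the 22 called liver probes 19 were tested in lung and 0 were called there, where limma called 7 of 32697 probes (0.0214%) and 1653 (5.06%) had an unadjusted p under 0.05. The difference between the liver and lung changes was called for 12 of 37087 probes (0.0324%). Among the genes above it was called for Osbpl3 (1.39 in liver, -0.29 in lung, adjusted p = 0.0027), Cd36 (1.86 and -0.55, adjusted p = 0.0074), Adgrg3 (0.88 and -0.19, adjusted p = 0.012) and Gas6 (0.98 and -0.35, adjusted p = 0.018). The contrast also passed for Tff3, Mmd2 and the unnamed probe A_55_P2177410, but these were well above background in 0 of 15 lungs, so a change in lung could not be measured and they are not counted as tissue differences.

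For the class II genes the difference did not pass. Cd74 changed by 1.78 in liver and differed by -0.01 ± 0.29 in lung, and the difference of 1.79 ± 0.43 had a limma adjusted p of 0.16. For H2-Ab1 it was 0.97 ± 0.23 (adjusted p = 0.15) and for Adamdec1 1.97 ± 0.44 (adjusted p = 0.12).

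**Figure D5:**
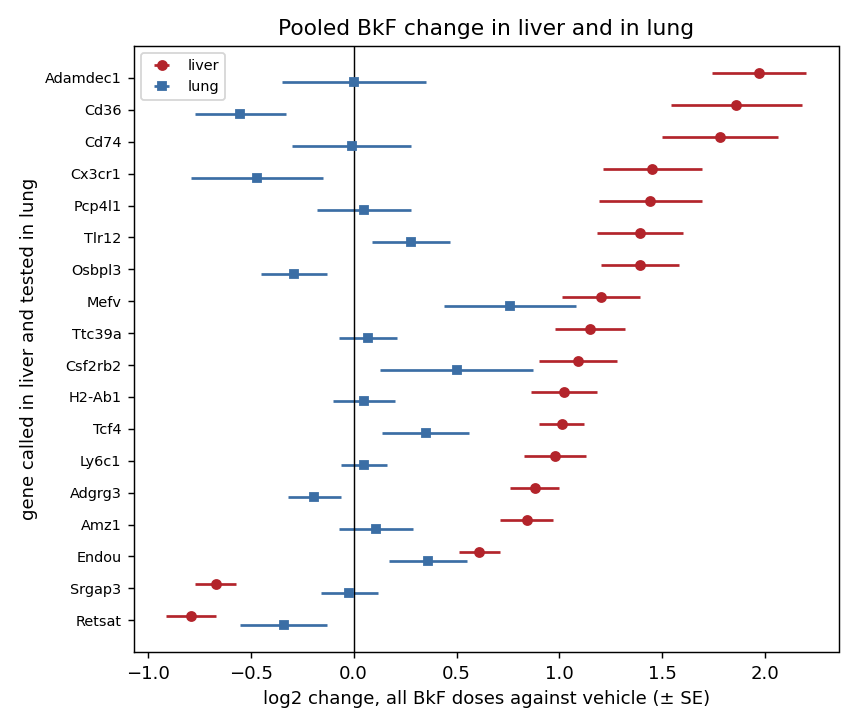
Pooled log2 change with BkF (x axis, ± SE) in liver (circles) and lung (squares) for the 18 genes called in liver and tested in lung (y axis). Lung changes lie between -0.55 for Cd36 and 0.76 for Mefv, and none was called.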

How the data were processed

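RNA of 42 tissue samples was measured on 2-colour Agilent arrays, and the 13 liver and 15 lung arrays were used here. The authors deposited 1 scanner file per array with median intensity values of both channels and, per the file headers, a log10 ratio made by Feature Extraction (11.0.1.1 for liver, 10.7.3.1 for lung). The processed table and the forestomach arrays were not used here. The authors worked with LOWESS-normalised medians without background subtraction and with MAANOVA, a false discovery rate of 0.05 and a 1.5-fold limit. Here limma 3.58.1 in R 4.3.3 (data.table version 1.17.8) applied loess within each array to log2(red/green) of the deposited medians. Dyes were not swapped, so a constant dye bias drops out of differences only.

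Control spots (3671) and outlier flags were removed, leaving 55681 probes, of which 27235 (48.9%) were named through RefSeq accessions with the GRCm38.p6 table. Probes well above background in at least 2 livers (3 lungs) were tested, and each gene was represented by its brightest probe. The main test was a linear model with empirical Bayes moderation, 9 treated against 4 vehicle livers, with two-sided p-values. Among doses, a fit with 4 group means was used, and for liver minus lung a contrast over 28 arrays. Scripts were tested on simulated data, and figures were drawn with matplotlib.

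Liver and lung numbered alike came from the same mouse, which pairs them. The correlation of their deviations from group means ran from -0.18 to 0.18. With the mouse as a replicate block the liver minus lung count was 12, as without it.

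Genes were named by rule. Up to 12 called genes in each direction that met the every-dose description came first, then other called genes and, where too few, uncalled genes meeting it. The AhR core, 3 p53 targets and the called or most changed members of each list were added. The members, the 33 gene lists and the rule were chosen with earlier results of these data known. Alternatives covered slide, background, normalisation, filter, variance model, array weights, doses and single livers. Some members of the lists are not reported here.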

Additional observations from a re-analysis of the deposited data

Results flagged for a closer look

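Among the named genes, 10 of 102 groups of livers held a value whose gap to the nearest other was large for the group's range. Chance gives about 1 in 20 such groups, and the groups of treated and D3 livers share mice. D2 mouse 12 accounted for 4, with Tff3 at 2.12 (nearest 3.75), Ahrr at 2.11 (0.93), Nqo1 at 0.69 (-0.77) and Cdkn1a at -0.74 (-2.39) among the treated livers. D3 mouse 16 had the lowest Cd36 of its dose, 0.25 (nearest 1.29), and a Cyp1a2 of 5.81, apart both from the D3 livers (6.34) and from all treated livers (6.29). Vehicle mouse 4 had a Mefv of 0.57 (nearest 0.12), D3 mouse 17 a Gstp1 of 2.51 (3.54) and D2 mouse 13 a Ccng1 of -1.27 (-1.46).

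The change in liver differed from that in lung by limma's contrast for 8 probes that met the every-dose description. The differences were 1.68 and 1.52 for the pair of Osbpl3 probes, 2.41 for Cd36, 1.07 for Adgrg3, 1.33 for Gas6, -2.51 for Tff3, -2.07 for Mmd2 and -0.87 for the unnamed probe A_55_P2177410. The last 3 probes were well above background in 0 of 15 lungs, so their change in lung could not be measured.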

How the results depend on the processing

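All 20 called genes kept their direction under each alternative in which they were tested, which groups without overlap fix wherever livers were only left out. Their calls held less often. With slide as a block 16 stayed called, with scale normalisation 13, with the scanner software's ratios 9 and without D3 mice 17 and 20 6. All 20 stayed called with normexp, with array weights and without the low dose. Cd36, Cx3cr1 and Pcp4l1 kept their call in the fewest alternatives, 7 each. The 22 called probes became 24 (16 higher, 8 lower) with the 3 dose means weighted equally, 18 with slide as a block, 26 with normexp, 17 with scale normalisation, 15 (15 higher, 0 lower) with the scanner software's ratios, of which 10 were among the 22, and 20 to 24 under the other filters. They became 2 within each slide alone (0 higher, 2 lower in each), 48 with array weights (35 higher, 13 lower), 42 without the low dose, and 9 without D3 mice 17 and 20, an alternative chosen after seeing the data. Leaving out single livers gave 1 to 40. The count among doses stayed 0 except for 5 without D1 mouse 8, so leaving out a liver gave 0 to 5. The liver minus lung count of 12 became 25 (25 higher, 0 lower) with the scanner software's ratios, 70 with array weights and 5 among probes well above background on all arrays. It ranged from 10 to 30 when 1 array was left out, with 24 without liver mouse 12, 28 without liver mouse 9 and 30 without lung mouse 4. With the mouse as a replicate block it was 12, and Osbpl3, Cd36 and Adgrg3 kept their calls. The sign turned for Cyp1a2 (-0.03 within slide 1, -0.15 with the scanner software's ratios), Cd3g (-0.07 within slide 1), H2-T23 (0.01), Lcn2 (-0.05) and Lyve1 (-0.11) within slide 2, and Mdm2 (-0.01) with array weights. Leaving out single livers, Cyp1a2 ranged from -0.01 to 0.11, Lyve1 from -0.02 to 0.35 and Cyp3a44 from -0.06 to 0.92. Over the alternatives other than leaving out single livers, the change ran from 0.67 to 1.87 for Pcp4l1 and from 0.85 to 3.34 for Mefv. It ran from 0.74 to 1.60 for Amz1, 0.51 to 1.40 for Endou, -2.56 to -1.40 for Tff3 and -1.19 to -0.59 for Srgap3. The cause of these shifts was not tested. The 13 livers, 2 of them at the low dose, limit the power, and dim probes carry bounds only.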
